A study of Mus musculus with 8 samples.

Results

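The 10 genes described here carry fatty acids from blood lipoproteins into the fat cell: Lpl, Gpihbp1, Angptl4, Vldlr, Cd36, Slc27a1, Slc27a4, Acsl1, Fabp4 and Fabp5. They were chosen by name, as the rows of the deposited gene tables with these symbols, and all 10 were found among the 18691 genes listed. The tissue was white fat from the epididymal pad of C57BL/6J mice aged 16 weeks, and polyadenylated RNA was sequenced. One group of 4 libraries was labelled wild type (WT, numbers 1, 2, 3 and 4). The other group of 4 was labelled Mrp4-/-, a knockout of the ABC family exporter Mrp4, which is encoded by Abcc4 (numbers 1, 2, 4 and 5). The labels describe neither the altered allele nor whether each library came from its own mouse. The p-values therefore reflect the spread among these libraries, which may be technical. Abcc4 RNA was at 3.52 ± 0.232 FPKM in WT and 3.6 ± 0.244 FPKM in the second group (SD, n = 4), so its level did not check that label, and the second group is called knockout-labelled below. FPKM is a fragment count scaled to transcript length and to library size.

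Lipoprotein lipase (LPL) is made by adipocytes, folded with the help of Lmf1 in the endoplasmic reticulum, and carried to the inner face of capillaries by Gpihbp1, where it splits the triglyceride of chylomicrons and very low density lipoprotein. Angptl4 inactivates the enzyme, and Vldlr binds triglyceride-rich lipoproteins at the cell surface. Freed fatty acids enter adipocytes through Cd36 and the transport proteins encoded by Slc27a1 and Slc27a4, are joined to coenzyme A by Acsl1, and are bound in the cytosol by Fabp4 and Fabp5. Several of these genes, among them Lpl, Cd36, Fabp4 and Acsl1, are known targets of the nuclear receptor PPARG.

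RefSeq promoter sequences (build GRCm38.p6) were found for 5 of the 10 genes, namely Acsl1, Cd36, Slc27a1, Slc27a4 and Vldlr. The 250 bases before the start are shown for Vldlr, the member that passed the test between the groups, at both of its listed starts, and for Cd36, the main fatty acid receptor of the adipocyte surface. Each is written 5′ to 3′ on the strand of the gene, and capitals mark matches, on either strand, to AGGTCA (the hexamer core of sites bound by PPAR and other nuclear receptors) or GGGCGG (the GC box).
Vldlr, first start, chr19:27216234-27216483, plus strand: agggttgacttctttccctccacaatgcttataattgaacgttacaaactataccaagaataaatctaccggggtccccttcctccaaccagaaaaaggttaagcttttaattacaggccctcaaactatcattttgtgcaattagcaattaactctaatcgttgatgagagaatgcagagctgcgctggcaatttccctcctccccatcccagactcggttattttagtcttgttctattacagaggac
Vldlr, second start, chr19:27216770-27217019, plus strand: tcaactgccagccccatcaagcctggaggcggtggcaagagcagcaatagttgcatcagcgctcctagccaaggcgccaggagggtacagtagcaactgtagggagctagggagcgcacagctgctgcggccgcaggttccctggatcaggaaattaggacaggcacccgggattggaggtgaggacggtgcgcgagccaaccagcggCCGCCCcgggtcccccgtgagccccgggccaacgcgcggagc
Cd36, chr5:17835897-17836146, minus strand: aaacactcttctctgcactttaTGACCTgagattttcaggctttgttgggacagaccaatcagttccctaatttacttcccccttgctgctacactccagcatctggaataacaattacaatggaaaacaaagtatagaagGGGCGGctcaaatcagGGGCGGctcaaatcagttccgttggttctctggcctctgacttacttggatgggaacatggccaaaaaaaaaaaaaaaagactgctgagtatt

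The Cd36 window held 1 match to AGGTCA, 228 bases before the start, and 2 to GGGCGG, at 109 and 93 bases before it. The Vldlr windows held 0 and 1 match to GGGCGG, the latter 42 bases before the second start, and 0 to AGGTCA. The GC content was 41.6% at the first Vldlr start, 66.4% at the second and 43.2% at Cd36. Over 32851 windows of the same length, 14% held AGGTCA, 32.7% held GGGCGG and 12.4% held TATAAA, which none of the 3 windows shown held. The matches overlapped no match to another of these motifs. A match describes letters in the window and shows no binding.

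Depth was even across the 8 libraries, with 14064681 to 14700114 expected counts each. Fat cell RNA was present throughout: all 14 adipocyte markers were detected (1 higher and 5 lower in the knockout-labelled group), and they summed to 32543 to 39830 FPKM in WT and 25835 to 30721 FPKM in knockout-labelled libraries. Abundant genes weigh most in this sum, and Cfd alone went from 9813 ± 2510 to 3466 ± 1452 FPKM (SD, n = 4). Besides Cfd, Adrb3 (log2 fold change -0.90), Retn (-0.90), Cebpa (-0.35) and Plin1 (-0.35) were lower, and Lep (1.78) was higher. The other 8 markers did not pass, among them Adipoq (-0.15) and Pparg (-0.03), and the median over the 14 was -0.24. RNA of genes best known from liver differed. Of the liver markers, 12 of 12 were higher in the knockout-labelled group, and their sum was 54.7 to 131 FPKM in WT and 749 to 1499 FPKM in that group. Whether this RNA came from liver or from cells of the fat pad was not tested. Macrophage markers summed to 809 to 959 FPKM in WT and 1074 to 1644 FPKM in the other group (6 of 14 higher), and capillary endothelial markers to 510.0 to 798 and 852 to 911 FPKM (6 of 15 higher). Lyz2 weighed most in the macrophage sum, at 492 ± 39.1 and 719 ± 179 FPKM (SD, n = 4), and did not pass (edgeR adjusted p = 0.0568). At the same threshold (edgeR adjusted p under 0.05), 10.2% of all genes tested were higher and 8.05% lower. Muscle markers other than Acta1 were at or below 1.39 FPKM in both group means. In whole tissue, a change in the number of cells of a type cannot be told apart from a change in RNA per cell.

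Fabp4, Lpl and Cd36 were among the most abundant RNAs of the tissue, and the other 7 genes spread over a wide range below them. The 10 genes took 2.14% to 2.6% of all expected counts in WT and 2.36% to 3.14% in knockout-labelled libraries. Per length, Fabp4 ranked 2 and Lpl 6 of all genes by mean FPKM over the 8 libraries, and Cd36 ranked 31. Angptl4, Acsl1, Slc27a1, Gpihbp1 and Fabp5 followed at ranks 125, 129, 419, 558 and 693. Vldlr and Slc27a4 were the scarcest, at ranks 4307 and 4418. Fabp4 was higher than Lpl in 8 of 8 libraries (3.93-fold in the means), Lpl higher than Cd36 in 8 of 8 (2.53-fold), and Cd36 higher than Angptl4 in 8 of 8 (2.88-fold). Neighbours in this order with overlapping ranges, which could not be ranked, were Angptl4 and Acsl1, Slc27a1 and Gpihbp1, Gpihbp1 and Fabp5, and Vldlr and Slc27a4.

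**Figure D1:**
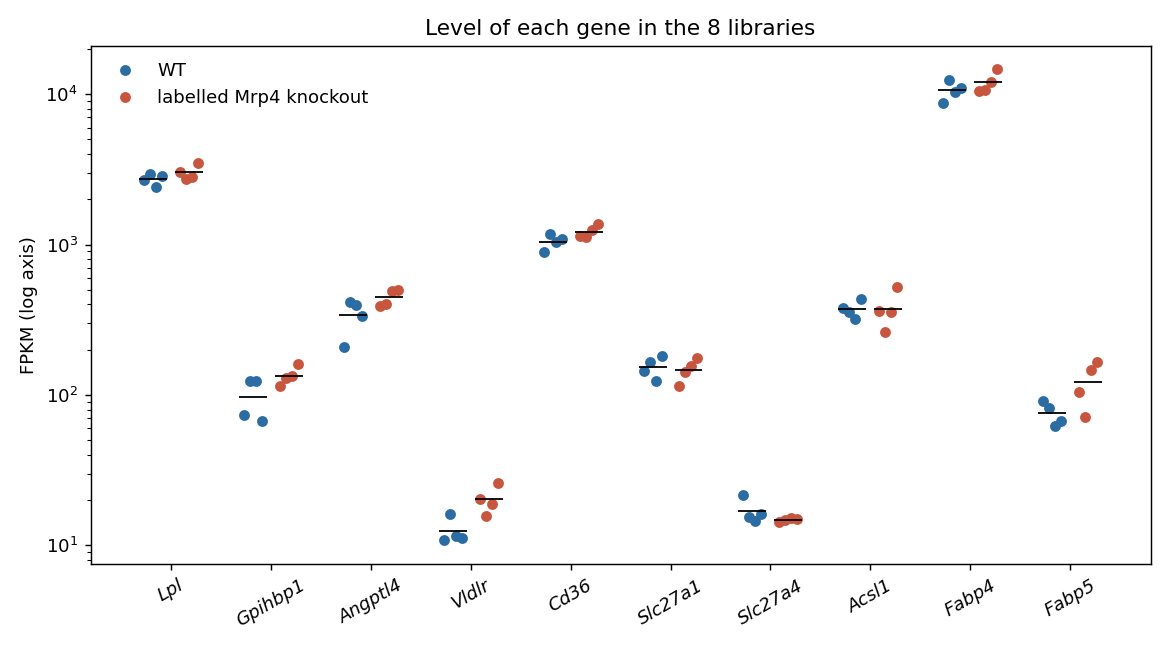
Level of each of the 10 genes in FPKM (log axis) in every library, WT in blue and labelled Mrp4 knockout in red, with a black line at each group mean. The ranges of the 2 groups overlap for each gene, from Fabp4 near 10605 FPKM in the WT mean to Vldlr near 12.4.

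Of the 10 genes, 1 was higher in the knockout-labelled libraries and 0 were lower by edgeR's quasi-likelihood test at an adjusted p under 0.05, where 18.3% of the 14257 genes tested passed (10.2% higher, 8.05% lower). Of all genes that passed, 55.9% were higher, and 74.1% with scaling by library size alone. At an unadjusted p under 0.05, 2 were higher and 1 was lower, where 35.3% of all genes tested passed in either direction. DESeq2 called 2 of the 10 higher and 0 lower, beside 1785 genes higher and 1529 lower over the whole table. Neither count sets the 10 genes apart from other genes. All 10 passed the filter on low counts, and each had at least 746 expected counts in every library. The median log2 fold change of the 10 was 0.14, beside a median of -0.00 over all genes tested. The group ranges in FPKM overlapped for 10 of 10, where the ranges of 23.5% of all tested genes did not overlap. The absolute log2 change had a median of 0.21 among the 10 and 0.19 among all tested genes. The call of the single gene that passed, Vldlr, rested on which libraries were kept, as given with its values.

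**Figure D2:**
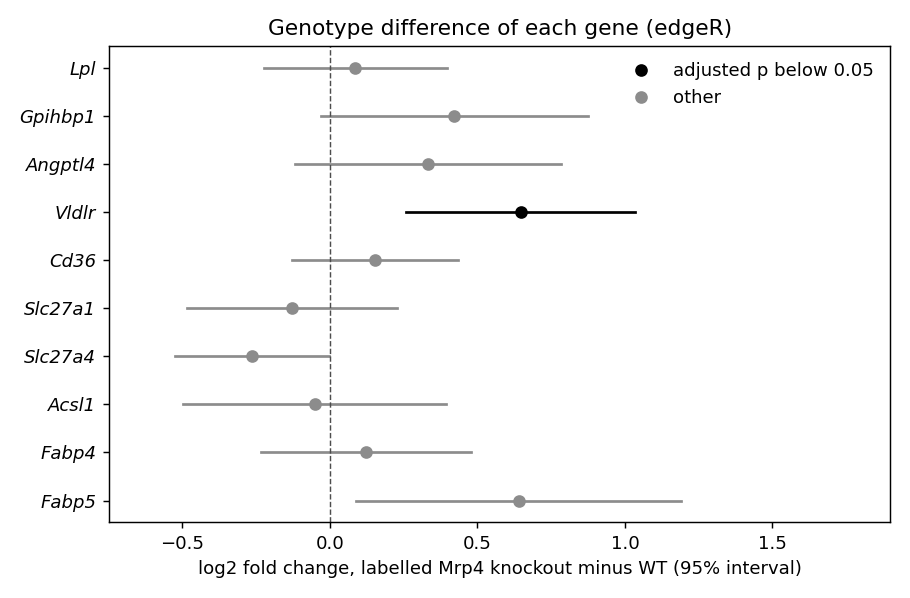
Log2 fold change of each gene, knockout-labelled minus WT, with its 95% interval from edgeR (4 libraries a group). Vldlr, in black at 0.65, is the gene with an adjusted p below 0.05, and the intervals of 7 of the 9 others, in grey, include 0.

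Lpl, the enzyme itself, did not pass the test. It was at 2679, 2951, 2413 and 2838 FPKM in WT libraries 1, 2, 3 and 4, and 3047, 2736, 2795 and 3504 FPKM in knockout-labelled libraries 1, 2, 4 and 5. Library 5 was the highest of all and WT 3 the lowest, and the other 6 lay between 2679 and 3047. On the log2 scale the groups differed by 0.09 ± 0.14 (SE; edgeR adjusted p = 0.691). In fold terms the 95% interval ran from 0.856 to 1.32 times the WT level.

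Gpihbp1, which binds LPL on capillary endothelium, varied most within WT of the 10 genes (coefficient of variation 31.4%). WT libraries 1 and 4 were at 74.1 and 67.5 FPKM, and WT 2 and 3 at 124 and 123 FPKM. Knockout-labelled libraries 1, 2, 4 and 5 were at 115, 130, 134 and 160 FPKM. The WT libraries thus fell into a low and a high pair, and the high pair lay within the range of the other group. Its log2 change of 0.42 ± 0.20 did not pass (95% interval of the fold 0.979 to 1.83, edgeR adjusted p = 0.166). The summed capillary endothelial markers showed the same division, with 560 and 510 FPKM in WT 1 and 4 and 798 and 722 FPKM in WT 2 and 3, beside 866, 852, 875 and 911 FPKM in knockout-labelled 1, 2, 4 and 5. As a share of that sum, a value added after the data were seen, Gpihbp1 was 14.8% ± 1.88 in WT and 15.4% ± 1.74 in the other group (SD, n = 4). Against Cdh5, the junction protein gene of endothelium, Gpihbp1 stood at 1.11, 1.19, 1.44 and 1.08 in WT and 0.835, 0.986, 1.03 and 1.14 in the knockout-labelled libraries. This ratio was lower by 0.27 on the log2 scale without passing (exact permutation p = 0.0857, adjusted over 10 ratios 0.171). Cdh5 itself rose by 0.70 (edgeR adjusted p = 0.0127), as 6 of the 15 endothelial markers did. The other 9 did not pass, among them Kdr (0.07) and Eng (0.14). Ratios of Gpihbp1 to single endothelial markers other than Cdh5 were not tested. How far the endothelial share of the tissue bears on Gpihbp1 was not tested.

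**Figure D3:**
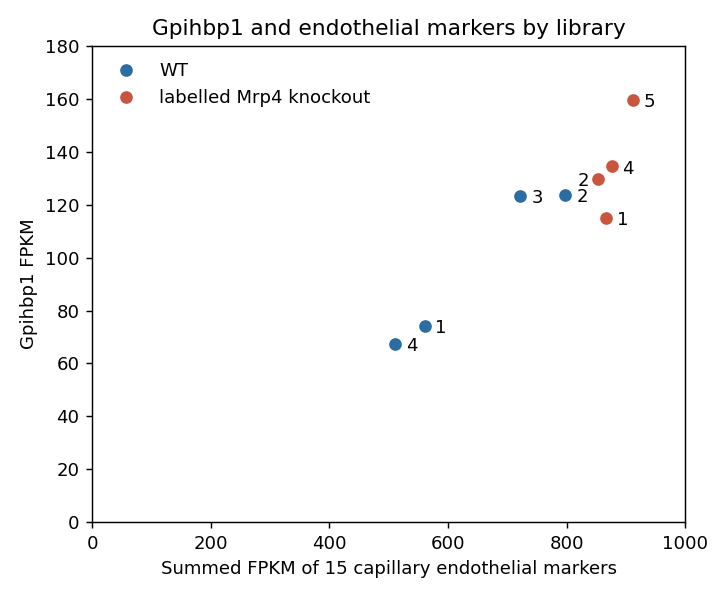
Gpihbp1 in FPKM against the summed FPKM of 15 capillary endothelial markers, 1 point a library labelled by its number, WT in blue and labelled Mrp4 knockout in red. WT 1 and 4 are low on both axes (510.0 to 560 FPKM summed), and Gpihbp1 is 13.2% to 17.5% of the sum in every library.

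Angptl4, the inhibitor of LPL, was lowest in WT 1. It was at 208, 417, 399.6 and 335 FPKM in WT libraries 1, 2, 3 and 4. In knockout-labelled libraries 1, 2, 4 and 5 it was at 389.9, 402, 493 and 497 FPKM. Libraries 4 and 5 lay above every WT library, while 1 and 2 lay within the WT range. The log2 change was 0.33 ± 0.20 (edgeR adjusted p = 0.265), and it was 0.16 without WT 1. The ratio of Angptl4 to Lpl was 0.0775, 0.141, 0.166 and 0.118 in WT and 0.128, 0.147, 0.176 and 0.142 in the knockout-labelled group. The ranges of this ratio overlapped (log2 difference 0.28, exact permutation p = 0.343, adjusted 0.381), and the difference was 0.07 without WT 1 and 0.44 without WT 3.

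Vldlr, the very low density lipoprotein receptor gene, rose. WT libraries 1, 3 and 4 lay close together at 10.8, 11.5 and 11.1 FPKM, and WT 2 stood apart at 16.2 FPKM. Knockout-labelled libraries 1, 2, 4 and 5 were at 20.4, 15.7, 19 and 26 FPKM. Of these, 3 lay above every WT library, and library 2 lay just under WT 2. The rise was 0.65 ± 0.17 on the log2 scale, or 1.57-fold with a 95% interval from 1.2 to 2.05 (edgeR adjusted p = 0.0334). The call was lost without WT 1, 3 or 4 (0.59, 0.61 and 0.60; adjusted p = 0.0869, 0.0809 and 0.0882) and without knockout-labelled 1, 4 or 5 (0.65, 0.68 and 0.50; adjusted p = 0.0686, 0.0646 and 0.0665). It held without WT 2 (0.79) and without knockout-labelled 2 (0.76). Summed liver, macrophage and endothelial markers were higher in the knockout-labelled group, where 12 of 12, 6 of 14 and 6 of 15 markers passed. The part of these markers in the Vldlr result was not tested.

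Relative to Lpl, which did not pass (log2 fold change 0.09), Vldlr stood higher. This comparison uses the same Vldlr values and is no separate result. The ratio was 0.00404, 0.0055, 0.00476 and 0.00392 in WT and 0.0067, 0.00574, 0.00679 and 0.00742 in knockout-labelled libraries, so that all 4 of the latter lay above all WT libraries. The log2 difference was 0.56, with an exact permutation p of 0.0286, the smallest that 4 against 4 libraries allow, and 0.143 when adjusted over the 10 ratios. The deposited transcript length of Vldlr, which lists 2 transcripts, was 8302 ± 7.02 bases in WT and 8306 ± 4.81 in the other group (exact permutation p = 0.4). No difference in this mean length was detected. How far the 2 transcripts differ in length was not examined, so the value cannot tell whether their mix differed.

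The uptake receptor Cd36 differed little. It was at 890.1, 1177, 1042 and 1082 FPKM in WT 1, 2, 3 and 4, and 1140.5, 1118, 1248 and 1366 FPKM in knockout-labelled 1, 2, 4 and 5. WT 1 was the lowest and library 5 the highest. Between the groups Cd36 differed by 0.15 ± 0.13 on the log2 scale (fold between 0.915 and 1.35 at 95% confidence, edgeR adjusted p = 0.415). Relative to Adipoq, the adiponectin gene that marks fat cells, Cd36 stood at 0.376, 0.435, 0.401 and 0.389 in WT and at 0.457, 0.491, 0.48 and 0.556 in the knockout-labelled group. These ratios did not overlap between the groups (log2 difference 0.31, exact permutation p = 0.0286, adjusted over the 10 ratios 0.143). Adipoq itself had a log2 fold change of -0.15 that did not pass (edgeR adjusted p = 0.325). Cd36 lists 5 transcripts, and its deposited length was 3476 ± 3.5 bases in WT and 3472 ± 2.31 in the other group (exact permutation p = 0.114).

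The fatty acid transport genes had lower fitted levels, and neither passed. Slc27a1, which encodes the insulin-responsive transport protein FATP1, was at 144, 166, 124 and 182 FPKM in WT and at 115, 142, 157 and 175 FPKM in knockout-labelled libraries. Its log2 fold change was -0.13 ± 0.16 (95% interval of the fold 0.714 to 1.17, edgeR adjusted p = 0.593), and it was -0.02 without knockout-labelled 1, -0.03 without WT 4, -0.22 without WT 3 and -0.23 without knockout-labelled 5. Slc27a4, which encodes FATP4, was at 21.5, 15.6, 14.6 and 16.2 FPKM in WT. In the knockout-labelled group it lay between 14.3 and 15.2 FPKM, the narrowest spread of the 10 genes (coefficient of variation 2.74%). WT 1 was high and the other 3 WT libraries were near the second group. The log2 fold change of Slc27a4 was -0.26 ± 0.12 (edgeR adjusted p = 0.139), and it was -0.13 without WT 1.

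Acsl1, the acyl-CoA synthetase that traps fatty acids in the cell, had near equal means, 372 ± 47.1 FPKM in WT and 375 ± 106 FPKM in the knockout-labelled group (SD, n = 4). WT libraries were at 379, 359, 319 and 432 FPKM. The knockout-labelled libraries spread further, with library 2 at 264, libraries 1 and 4 at 359 each and library 5 at 519.6 FPKM. Its log2 change was -0.05 ± 0.20 (95% interval of the fold 0.709 to 1.31, edgeR adjusted p = 0.879), and its sign turned when libraries were scaled by size alone (0.01). Without library 5 it was -0.26 and without library 2 it was 0.09.

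Neither cytosolic carrier passed the test in edgeR. Fabp4, the fat cell carrier aP2, was at 8696, 12348, 10397 and 10977 FPKM in WT and at 10549, 10630.45, 12099 and 14597 FPKM in knockout-labelled libraries. WT 1 was the lowest and library 5 the highest, and the log2 change was 0.12 ± 0.16 (95% interval of the fold 0.851 to 1.39, edgeR adjusted p = 0.613). Fabp5, a carrier that macrophages and endothelium also express, was at 91.3, 82, 62.6 and 67.4 FPKM in WT. In knockout-labelled libraries 1, 2, 4 and 5 it was at 105, 71.8, 148 and 166 FPKM. Library 2 lay within the WT range and the other 3 above it. Fabp5 had a log2 change of 0.64 ± 0.25 (95% interval of the fold 1.06 to 2.28) and did not pass in edgeR (adjusted p = 0.0961). It passed without library 2 (0.83, adjusted p = 0.0273) and in DESeq2 (0.64, adjusted p = 0.0437). The summed macrophage markers were highest in library 1 at 1644 FPKM and lowest in library 5 at 1074 FPKM among the knockout-labelled libraries, while Fabp5 was highest in library 5. As a percentage of that sum, added after the data were seen, Fabp5 was 6.53 to 11.3 in WT and 6.02 to 15.5 in the other group. A pseudogene copy, Fabp5l2, is annotated, so some Fabp5 reads could be shared with it. The expected counts of Fabp5 were whole in every library, while those of Slc27a1 were not (4574.54 to 7171.73). Whether reads of either gene were shared was not tested.

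Fabp5 stayed far below Fabp4 in every library. Their ratio was 0.0105, 0.00664, 0.00602 and 0.00614 in WT and 0.00992, 0.00676, 0.0122 and 0.0114 in the knockout-labelled group (log2 difference 0.46, exact permutation p = 0.114, adjusted 0.19). The remaining ratios tested were Gpihbp1 to Lpl (0.37), Slc27a4 to Slc27a1 (-0.11), Acsl1 to Cd36 (-0.24), Lpl to Adipoq (0.24) and Fabp4 to Adipoq (0.26), given as log2 differences. Their exact permutation p-values were 0.257, 0.629, 0.2, 0.0857 and 0.0571. The difference for Slc27a4 to Slc27a1 turned to 0.03 without WT 1, and the one for Acsl1 to Cd36 was -0.13 without knockout-labelled 2. After adjustment over the 10 ratios, 0 passed, and the 2 whose groups did not overlap were Vldlr to Lpl and Cd36 to Adipoq. Both had the smallest p that 4 against 4 libraries allow (exact permutation p = 0.0286, adjusted 0.143). A ratio with full separation thus failed as well, so 0 passing does not show that the ratios were alike.

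One library held most of the high values. Knockout-labelled library 5 was the highest of the 8 for 8 of the 10 genes, the exceptions being Slc27a1 (highest in WT 4) and Slc27a4 (highest in WT 1). Of all tested genes, 11.9% were highest in that library. WT 1 was the lowest for 4 genes, Cd36, Fabp4, Vldlr and Angptl4, where 20.8% of all tested genes were lowest in it. Relative to the WT mean of each gene, library 5 ran from 0.88 for Slc27a4 to 2.19 for Fabp5. Without library 5 the log2 fold changes were 0.00 for Lpl, 0.09 for Cd36, 0.00 for Fabp4, 0.45 for Fabp5, 0.32 for Gpihbp1, 0.27 for Angptl4 and -0.23 for Slc27a1, and none of the 10 genes passed in edgeR.

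**Figure D4:**
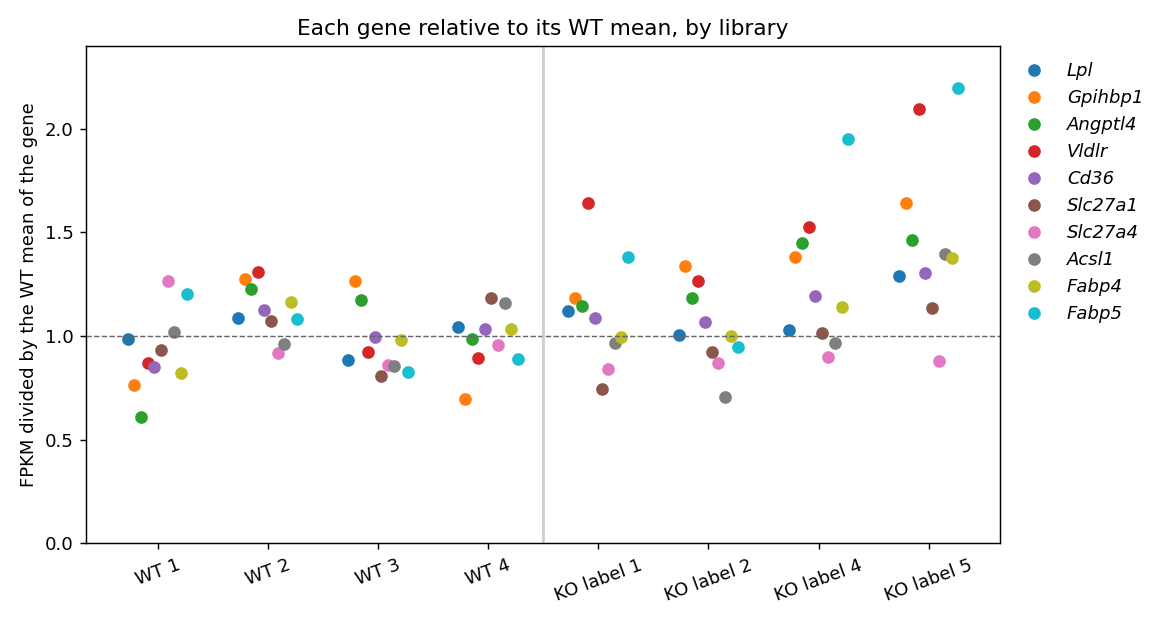
FPKM of each gene divided by its WT mean, by library, with the 4 WT libraries on the left, the 4 labelled Mrp4 knockout on the right and a dashed line at the WT mean. In knockout-labelled library 5, 9 of the 10 genes lie above 1, with Vldlr at 2.1 and Fabp5 at 2.19, and Slc27a4 lies at 0.88.

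Likeness of pattern was measured as the root mean square difference between the 8 log2(FPKM + 1) values of 2 genes, each centred on its own mean, over 6299 other genes whose mean was 10 FPKM or more. Nearest to Vldlr were Osbpl8 (0.07), Degs1 (0.08) and Mgmt (0.10), where the values of Vldlr themselves had a root mean square of 0.41. Nearest to Cd36 were 1110032A03Rik (0.04), Ufsp2 (0.05) and Chp1 (0.05), beside 0.17 for Cd36 itself. Fabp4 was at place 15 from Cd36 (0.07), which made these 2 the closest pair of members among those computed for Lpl, Cd36, Angptl4 and Vldlr, and Lpl was at place 444 from Cd36. Nearest to Lpl were Ifi27l1, Clybl and Med9 (0.06 each), and nearest to Angptl4 were Slc24a6 (0.08), Rapgef3 (0.10) and Car4 (0.10). Genes this near share depth and scaling in the same 8 libraries, and the values describe these libraries.

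Among the partners and regulators of LPL, of 22 genes tested 8 rose, 3 fell and 11 did not pass (50% called, beside 18.3% of all genes tested), with a median log2 fold change of 0.20. Apoa5 and Lipc, at 2 to 16 and 1 to 3 expected counts in the WT libraries, passed the filter on low counts only through the group where they were high, so the count is a description only. Fewer passed without WT 4 (6), knockout-labelled 5 (6) or knockout-labelled 1 (7). Among the 8 that rose were genes best known from liver, in libraries where 12 of 12 liver markers rose as well. They included Apoc2, the activator of LPL (3.31 ± 0.732 to 10.5 ± 2.2 FPKM), Apoc3, its inhibitor (4.28 ± 1.87 to 45.3 ± 15.8 FPKM), Apoa5, an enhancer of lipolysis (0.263 ± 0.182 to 6.46 ± 2.51 FPKM), and the hepatic lipase gene Lipc (0.0925 ± 0.035 to 0.825 ± 0.269 FPKM; SD, n = 4 for each). Whether RNA from liver had a part in these was not tested. Apoe, a ligand of lipoprotein receptors, fell from 2579 ± 169 to 2039.7 ± 247 FPKM (-0.40), and lost its call without 5 of the 8 libraries in turn and in 3 other settings.

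The list holds 5 genes that make or carry heparan sulfate, the sugar chain that holds LPL at cell surfaces, of which 3 rose (Glce, Hspg2 and Ndst1), 1 fell (Sdc4) and 1 did not pass (Sdc1). Over all genes tested, 10.2% rose and 8.05% fell, and the count over these 5 is a description only. Glce, which turns glucuronic into iduronic acid in the chain, was at 6.25, 6.38, 6.18 and 6.11 FPKM in WT and at 8.71, 8.5, 8.79 and 8.8 FPKM in knockout-labelled libraries. Both groups were tight and lay well apart. It rose by 0.42 ± 0.06 on the log2 scale (edgeR adjusted p = 0.00197), and the call held without each library in turn (0.41 to 0.43). Hspg2, which encodes the basement membrane proteoglycan perlecan, was at 70.3, 139, 105 and 75.7 FPKM in WT and at 181, 160, 196 and 184 FPKM in the other group. It rose by 0.83 ± 0.20 (edgeR adjusted p = 0.0231), a call lost without WT 4 and without knockout-labelled 4 or 5 (0.70 to 1.03 without any 1 library). WT 1 and 4 were low for Hspg2 as they were for Gpihbp1. Ndst1, a sulfotransferase of the chain, rose by 0.27 (adjusted p = 0.0435, lost without 6 of the 8 libraries in turn). Sdc4, a cell surface carrier, fell by 0.57 (adjusted p = 0.0478, lost without 6 of 8 and in 5 other settings), and Sdc1 had 0.31 and did not pass.

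Lmf1, the factor that LPL needs to fold, fell. It was at 19.3, 19.3, 18.1 and 19.2 FPKM in WT and at 15.2, 16.5, 17.3 and 15.7 FPKM in the knockout-labelled group. The groups did not overlap, and the log2 fold change was -0.29 ± 0.07 (edgeR adjusted p = 0.0212). The call was lost without WT 4 or knockout-labelled 1 or 5 (-0.32 to -0.25 without any 1 library). Sel1l, its partner in the reticulum, had 0.25 and did not pass (adjusted p = 0.11). Angptl8, listed in the files under its older symbol Gm6484, was at 17.5 FPKM in WT 1 and 4.4 to 7.16 FPKM in the other 7 libraries, and did not pass (-0.95, adjusted p = 0.101).

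**Figure D5:**
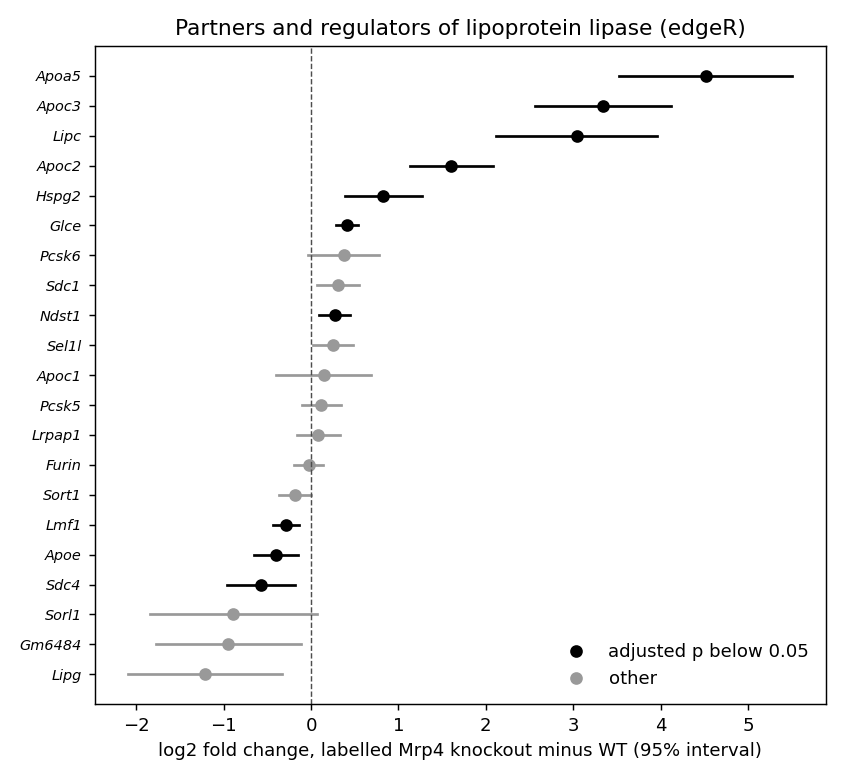
Log2 fold change, knockout-labelled minus WT, with 95% intervals from edgeR, for partners and regulators of LPL (1 of the 22 tested is not drawn), with adjusted p below 0.05 in black and others in grey. The liver genes Apoa5, Apoc3, Lipc and Apoc2 lie at the top (1.60 to 4.52), Hspg2, Glce and Ndst1 between 0.27 and 0.83, and Lmf1, Apoe and Sdc4 below 0.

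Of 13 other lipoprotein receptor genes tested, 1 rose, 0 fell and 12 did not pass, with a median of -0.01. The share called was 7.69%, beside 18.3% of all genes tested. The 1 was Stab2, a scavenger receptor of sinusoidal endothelium, at 0.195 ± 0.0968 and 0.438 ± 0.12 FPKM, whose call was lost without 7 of the 8 libraries in turn. Lrp1 was at 98.7 ± 9.65 and 99.3 ± 9.42 FPKM (adjusted p = 0.731), and Scarb1 at 98.7 ± 13.4 and 81.6 ± 7.88 FPKM (adjusted p = 0.0683; SD, n = 4, edgeR). The difference between Vldlr and these genes was not tested.

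Of 15 other genes of the SLC27, FABP and ACSL families in the files, 8 passed the filter on low counts. Of these, 3 rose, all of them genes best known from liver: Fabp1 (1.86 ± 1.15 to 78 ± 24 FPKM), Slc27a2 (0.375 ± 0.114 to 7.01 ± 3.57 FPKM) and Slc27a5 (0.383 ± 0.275 to 4.51 ± 1.73 FPKM; SD, n = 4). These 3 were low in WT and high in the other group, so the count over the 8 (37.5% called, beside 18.3% of all genes tested) is a description only. Whether RNA from liver had a part was not tested. Acsl5, Acsl4, Acsl3, Slc27a3 and Acsbg1 did not pass, with Acsl5 the most abundant at 21.3 ± 1.32 and 22.8 ± 1.19 FPKM. Fabp3, the muscle carrier, was at 0.365 and 0.33 FPKM and was not tested.

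Among other genes of fatty acid binding, transport and CD36 processing, of 20 tested 2 rose, 1 fell and 17 did not pass, with a median of -0.00. The share called was 15%, near the 18.3% of all genes tested, so the count sets this list apart from other genes in no way. Lyn and Fyn, Src family kinases known to act downstream of CD36, were the 2 that rose. Lyn was at 11.3, 13.9, 12.9 and 10.4 FPKM in WT and at 20.7, 19.1, 19.8 and 18.1 FPKM in the knockout-labelled group (0.61 ± 0.09, edgeR adjusted p = 0.00235), with a call that held without each library in turn. Fyn rose by 0.48 (adjusted p = 0.0317, lost without 4 of the 8 libraries in turn). Lyn is abundant in myeloid cells, and the summed macrophage markers were higher in the knockout-labelled group, where 6 of 14 passed. Their part in the rise of Lyn was not tested. Zdhhc5, a palmitoyl transferase of CD36, fell by 0.21 (adjusted p = 0.0491, lost without 7 of 8 and in 6 other settings). Zdhhc4, of the same family and list, did not pass (-0.10, edgeR adjusted p = 0.487). The caveolin genes Cav1 (0.05) and Cav2 (0.09) and the acyl-CoA binding protein gene Dbi (-0.11) did not pass.

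Among PPARG and its known fat cell targets outside the 10 genes, of 26 tested 1 rose, 1 fell and 24 did not pass, with a median of -0.12. The share called was 7.69%, beside 18.3% of all genes tested. Pparg itself was at 134, 72.2, 81.4 and 68.1 FPKM in WT and at 104, 79.6, 78.1 and 102 FPKM in the knockout-labelled libraries (-0.03 ± 0.21, edgeR adjusted p = 0.936). WT 1 was high for Pparg, while it was the lowest library for Cd36, Fabp4, Vldlr and Angptl4. The 2 that passed were the glycerol kinase gene Gyk (1.87 ± 0.266 to 2.88 ± 0.416 FPKM, 0.56) and the lipid droplet coat gene Plin1 (-0.35), lost without 5 and 4 of the 8 libraries in turn. The aquaglyceroporin gene Aqp7 (0.40), the droplet protein gene Cidec (0.25) and the lipase gene Lipe (-0.26) did not pass.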

How the data were processed

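RNA from epididymal fat was extracted with Trizol, selected for poly-A tails and sequenced as paired reads of 100 bases on a BGISEQ-500, per the labels' protocols. The submitters' processing notes name the build mm9 and the aligner Bowtie2, without a version; the sources used here do not give the quantifier. For each gene and sample the deposited files hold, per the file headers, the authors' expected count and FPKM, and a transcript length (bases). A gene not listed was taken as 0. A deposited FPKM table of the whole series matched these values (largest difference 0).

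Expected counts, 92% to 92.6% of them whole within 1e-09, were rounded. The test was edgeR's (4.0.16, under R 4.3.3; filterByExpr, TMM, glmQLFit with robust=TRUE, two-sided, Benjamini-Hochberg over 14257 genes, threshold 0.05). SE is the log2 change divided by the square root of F, and its 95% interval uses the t distribution of the fit. For ratios of FPKM the test was an exact permutation of the labels, two-sided, over all 70 divisions, whose smallest possible p is 0.0286. The scripts were tested on simulated data. The genes, lists and tests were chosen with earlier results of these data known. Named genes are the 10 members, Abcc4, list genes with the lowest p or that passed, and the 3 nearest in pattern to Lpl, Cd36, Angptl4 and Vldlr; other list genes named without a call were picked for their roles, with their values known. Alternatives were DESeq2 1.42.0 (as size factors or test), limma 3.58.1 (voom, or trend on log2(FPKM + 1) and log2(FPKM + 0.1)), other scalings and filters, the replicate number as a block, and each library left out. Muscle, mesothelial and brown fat lists were counted as well: 0 of 1, 1 of 8 and 2 of 7 tested genes passed, beside 18.3% of all genes tested. Whether counting used strand is unknown, and overlapping genes can share reads. The mm9 coordinates of the genes were not used here, and some list genes counted are not reported by name.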

Additional observations from a re-analysis of the deposited data

Results flagged for a closer look

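Of 46 sets of 4 values examined (the 10 genes, the 10 ratios and 3 transcript lengths in both groups), 2 held a library far from the other 3, where chance gives about 1 in 20. Vldlr in WT 2 was at 16.2 FPKM, while the other WT libraries were at 10.8 to 11.5 FPKM. The ratio of Fabp5 to Fabp4 in WT 1 was 0.0105, while the other WT libraries were at 0.00602 to 0.00664. In WT 1, Fabp5 was the highest and Fabp4 the lowest of the WT libraries.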

How the results depend on the processing

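Over 18 alternatives for each of the 10 genes, 171 of 180 log2 fold changes kept their side of the threshold. The other 9 were 7 for Vldlr, which lost its call, and 2 for Fabp5, which gained one. The sign turned in 5 cases, for Acsl1 (3), Lpl and Fabp4 (1 each, under the replicate block), none of which passed. The number of the 10 genes called higher was 0 to 2 when libraries were left out in turn, and 2 with DESeq2; the number called lower was 0 in each alternative run. Over all tested genes, leaving out libraries gave 1172 (without WT 4) to 3683 (without WT 2), beside 2606, and leaving out any library except WT 2 gave at most 1654. DESeq2 called 3314 genes with all libraries kept. The share called higher was 55.9%, and 74.1% with library size alone, 72.1% with limma on log2(FPKM + 1) and 71.9% on log2(FPKM + 0.1). Library size alone moved the median of all genes by less than 0.1 on the log2 scale. With libraries left out, LPL partners called were 6 to 13, lipoprotein receptors 0 to 2, other binding and transport genes 1 to 6, and PPARG and targets 0 to 4. Lipoprotein receptors called were 2 with library size alone and 3 with DESeq2. With the replicate number as a block, 141 genes were called over the whole table, 0 of the 10 genes (Vldlr 0.47, edgeR adjusted p = 0.21), 1 LPL partner, 0 lipoprotein receptors, 0 other binding and transport genes and 0 of the PPARG list. WT 3 and knockout-labelled 5 have no library of the same number in the other group. They did not bear on the group difference of that fit, which thus rests on fewer libraries. The numbers 1, 2 and 4 are shared by the groups, but libraries of the same number did not deviate together (correlations of 0.011, -0.075 and -0.128 over genes, where over 0.1 was asked of every pair), so the numbers were not taken as pairs. For the 10 ratios, 110 of 110 alternatives moved by less than the spread between libraries or kept their side of the threshold. Leaving out 1 of 4 libraries cannot shift a group mean by as much as that spread. The alternatives with a library left out thus could not come out otherwise, and 110 of 110 is no sign of stability. The sign of Slc27a4 to Slc27a1 (-0.11) turned without WT 1 (0.03) and over same-numbered libraries alone (0.00335). A ratio without 1 library was given as a value with no test. Even the ratios whose groups did not overlap failed after adjustment, so keeping a side of the threshold says little for the ratios. Each of the 10 genes had at least 746 expected counts in every library, while Lipc, Apoa5 and Stab2 were under 1 FPKM in WT and rest on few counts there.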
